A study of Rattus norvegicus with 6 samples.

Results

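Albumin, the plasma carriers related to it or working beside it, and the inter-alpha-trypsin inhibitor (ITIH) proteins were examined in liver RNA from animals on a high-fat diet, with and without Huazhuo Tiaozhi granule (HTG), a herbal preparation. The 10 genes were chosen by symbol: Alb, Afm and Gc of the albumin family, the retinol and thyroid hormone carriers Ttr and Rbp4, the bikunin precursor Ambp, and the heavy chain genes Itih1, Itih2, Itih3 and Itih4. Each symbol had 1 row among the 32930 gene rows of the deposited table, and all 10 were among the 18455 genes that passed the filter on low counts and were tested. The HFD group (n = 3) received the high-fat diet with 0.5% CMC-Na, the vehicle, and the HTG group (n = 3) received the same diet with HTG, both for 12 weeks by the labels. The labels name no vehicle for the HTG group. In the rat experiment that the study describes, the diet lasted 12 weeks. There HTG was gavaged in 0.5% CMC-Na during the later part of that time only. Which schedule applied to these libraries cannot be told from the sources. The dose, strain, sex and age of these animals are not in the labels. The sample characteristics spell the treatment HCG, whereas titles and design text spell it HTG. The labels name rats, the study's RNA sequencing methods name C57BL/6 J mice, and every gene row carries a mouse Ensembl identifier, so the rows were read as mouse genes. The sources do not say plainly that each library came from its own animal, so p-values measure the spread between these libraries.

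Hepatocytes secrete most of the protein in blood plasma. Albumin carries fatty acids, bilirubin and hormones, afamin (Afm) binds vitamin E, and the vitamin D-binding protein (Gc) carries vitamin D metabolites and scavenges actin. Retinol-binding protein 4 (Rbp4) takes retinol from the liver into plasma, where it travels bound to transthyretin (Ttr), which also carries thyroxine. Ambp encodes a precursor that is cut into alpha-1-microglobulin and bikunin. Bikunin bears a chondroitin sulphate chain to which the ITIH heavy chains are attached, and these chains can be passed on to hyaluronan. Itih4 lacks that attachment and circulates on its own.

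As context for these genes, stretches before the start sites are shown for 3 members in the rat reference (RefSeq, build GRCr8), since rat is the species of the labels and no mouse sequence was used here. They were chosen because they hold the letters GTTAAT, a short motif known from promoters of liver genes, on either strand (capitals mark the match, and ATTAAC is the same motif on the opposite strand). Promoter entries were found for 9 of the 10 members, all except Afm. The motif was in 3 of these 9, against 7.45% of all 33469 rat promoters of the same 300 bases (250 before and 50 after the start). Since the motif is known from liver genes and the members are liver genes, a higher share was built into the choice. The difference was not tested. A match of letters is a description and not a binding site. The Alb stretch, on the minus strand at chr14:17907016-17907101, has its match 82 bases before the start, the Gc stretch, on the plus strand at chr14:18916021-18916106, has it 194 bases before, and the Itih1 stretch, on the minus strand at chr16:6142814-6142892, has it 39 bases before.
Alb: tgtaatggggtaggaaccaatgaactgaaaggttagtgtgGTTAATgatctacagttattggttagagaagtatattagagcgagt
Gc: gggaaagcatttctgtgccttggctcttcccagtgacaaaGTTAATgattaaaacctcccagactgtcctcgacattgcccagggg
Itih1: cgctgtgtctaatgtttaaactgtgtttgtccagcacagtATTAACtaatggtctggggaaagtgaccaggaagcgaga

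The libraries summed to between 50648778 and 90563477 estimated counts, lowest in HTG library 3. Low counts came in steps of about 4, so that depth in fragments was between 12662194 and 22640869. Rows of the mitochondrial genome took 4.97% to 6.45% of the counts in the HFD libraries and 9.31% to 15.2% in the HTG libraries. All 12 hepatocyte markers of a fixed list were tested. Their summed level was 26342 to 32068 CPM in the HFD libraries and 17161 to 25821 CPM in the HTG libraries, without overlap. The summed level of adipocyte markers was at most 7.51 CPM, and that of exocrine pancreas markers at most 10.5 CPM. CPM, the normalised counts used throughout, are counts scaled to library size with edgeR's TMM factors. In bulk tissue, fewer hepatocytes and less RNA per hepatocyte cannot be told apart.

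Levels of different genes can be set side by side only per length, as FPKM (fragments scaled to transcript length and to library size). Alb was the highest of all 32930 rows, with a mean of 24535 FPKM over the 6 libraries. Ttr followed at 4180.1 FPKM (rank 21 of all rows), Gc at 3104 (rank 26), Ambp at 2966 (rank 29) and Rbp4 at 2092 (rank 42). Itih4 had 685 FPKM (rank 84), Itih3 627 (rank 86), Itih2 232 (rank 196), Itih1 178 (rank 256) and Afm 57.3 (rank 718). These levels span from the most abundant RNA of the liver to a moderately expressed gene. The ranges over libraries did not overlap between Alb and Ttr, Ttr and Gc, Rbp4 and Itih4, Itih3 and Itih2, or Itih1 and Afm. Ambp exceeded Rbp4, and Itih2 exceeded Itih1, in 6 of 6 libraries although their ranges over libraries overlapped. Gc and Ambp (5 of 6 libraries) and Itih4 and Itih3 (3 of 6 libraries) could not be ordered beyond their spread.

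**Figure D1:**
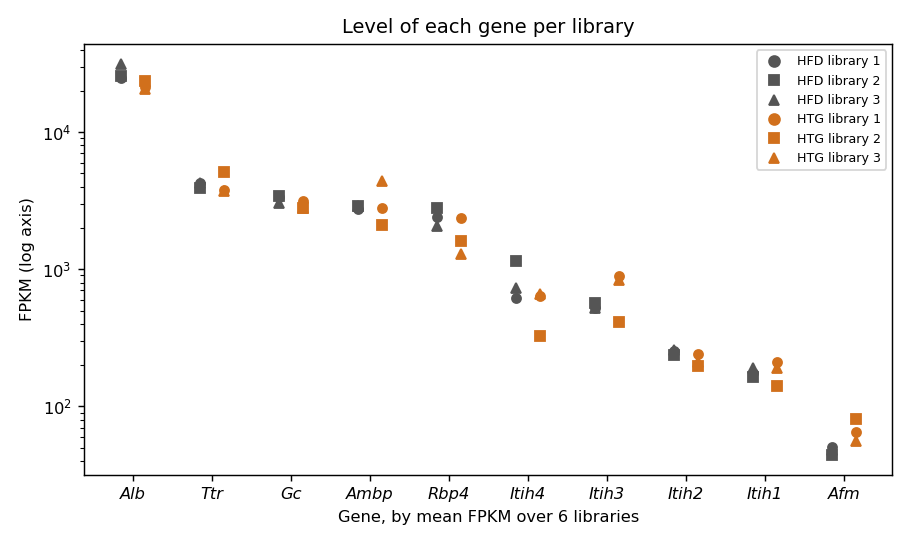
FPKM of each gene (vertical log axis) in every library, with genes ordered by their mean over the 6 libraries. Grey points are HFD libraries and orange points HTG libraries, with 1 marker shape per replicate number. Alb lies above all other genes in every library and Afm lies below them.

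None of the 10 members differed between the groups at an adjusted p under 0.05 (0 of 10, with adjusted p-values from 0.116 to 0.902 in the quasi-likelihood test of edgeR), where 0.0108% of all tested genes did. DESeq2 also called 0 members at that threshold and 1 at an unadjusted p under 0.05, and its adjusted p was under the threshold for 14.7% of all genes that had one. At an unadjusted p under 0.05, 1 member of 10 was higher in the HTG group (Afm) and 0 were lower, where 24.7% of all genes tested passed (12.3% higher and 12.4% lower). Every CPM of 1 group lay above every CPM of the other in 2 of the 10 members, Afm (higher) and Alb (lower), where 32.1% of all genes were separate in this way, 16.5% higher and 15.5% lower. The median log2 fold change of the members was -0.03, with 5 higher and 5 lower, beside 0.03 over all genes tested. Their median absolute log2 fold change was 0.24, against 0.44 over all genes tested. Exact permutation tests of 3 libraries against 3 have 0.1 as their smallest two-sided p.

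**Figure D2:**
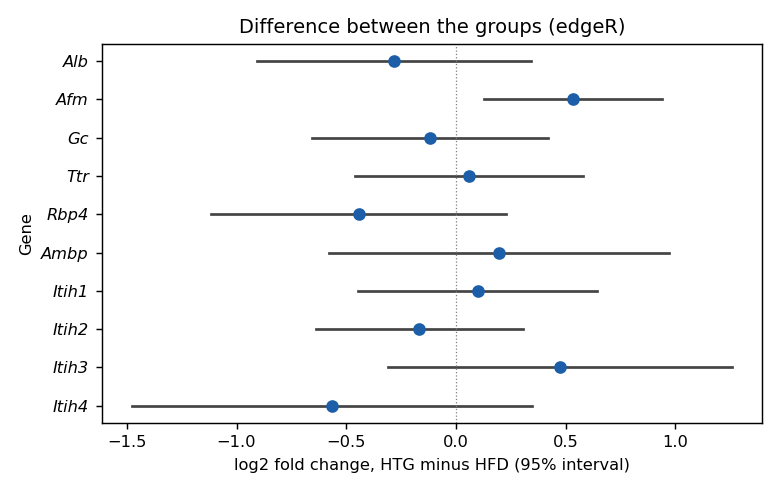
The log2 fold change of each gene, HTG minus HFD, on the horizontal axis, from edgeR's quasi-likelihood fit. Bars are 95% intervals. The interval of Afm (0.13 to 0.94) lies above 0 and those of the other 9 genes include 0.

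In the albumin family, Alb (ENSMUSG00000029368, chromosome 5, 90608756 to 90624461 in the mouse coordinates of the authors' table, whose build is not given in the sources used here) had 57854, 66091 and 74503 CPM in HFD libraries 1, 2 and 3. In HTG libraries 1, 2 and 3 it had 53506, 54429 and 55201 CPM. All HTG libraries were below all HFD libraries, and the spread came mainly from the HFD group. Its mean was 66149 ± 8325 CPM in the HFD group and 54379 ± 848 CPM in the HTG group (SD, n = 3 per group). The log2 fold change was -0.28 (standard error 0.27, 95% interval -0.91 to 0.34, adjusted p = 0.555 in edgeR's quasi-likelihood test).

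Afm (ENSMUSG00000029369, chromosome 5, 90666791 to 90701402) had 152, 148 and 147 CPM in the HFD libraries and 211, 242 and 196 CPM in the HTG libraries. Every HTG library was above every HFD library, and the HFD libraries were nearly alike. The mean was 149 ± 2.77 CPM in the HFD group and 216 ± 23.2 CPM in the HTG group (SD, n = 3 each), and the log2 fold change was 0.54 (standard error 0.18, 95% interval 0.13 to 0.94, unadjusted p = 0.0159, adjusted p = 0.116 in edgeR's quasi-likelihood test). In DESeq2 the adjusted p was 0.0755. Leaving out each library in turn kept the log2 fold change between 0.45 and 0.61, with unadjusted p-values from 0.0253 to 0.0479 in the same edgeR test. The antisense gene Gm42109 lies over part of Afm and had at most 1.07% of its counts in any library.

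Gc (ENSMUSG00000035540, chromosome 5, 89565381 to 89605757, minus strand) had 6179, 6977 and 5682 CPM in the HFD libraries and 6249, 5144 and 5954 CPM in the HTG libraries. The groups overlapped, with the highest value in HFD library 2 and the lowest in HTG library 2. Its log2 fold change was -0.12 (standard error 0.23, 95% interval -0.66 to 0.42, adjusted p = 0.789 in edgeR's quasi-likelihood test). The family's fetal member, Afp (alpha-fetoprotein), was at 2.91 ± 1.30 CPM in the HFD group and 2.61 ± 0.817 CPM in the HTG group (SD, n = 3 per group). In the authors' coordinates Alb, Afp and Afm lie in a row on the same strand, with 14134 bases between Alb and Afp and 10024 bases between Afp and Afm, and Gc lies 1002998 bases before Alb on the opposite strand.

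Within a library, the ratio of Afm to Alb does not depend on the scaling between libraries. On the log2 scale of counts it was -8.57, -8.80 and -8.98 in HFD libraries 1, 2 and 3, compared with -7.99, -7.82 and -8.14 in the HTG group. All HTG libraries were higher, by 0.80 on average or 1.75-fold (exact two-sided permutation test, p = 0.1, the smallest p possible, and 0.45 after adjustment over 9 pairs). The ratio of Gc to Alb differed by 0.16 with overlapping groups (exact permutation test, p = 0.5). Of all counts, Alb took 6.03%, 6.22% and 7.66% in the HFD group, compared with 5.31%, 5.88% and 5.11% in the HTG group (difference -1.20 percentage points, exact two-sided permutation test, p = 0.1, the smallest possible). With mitochondrial rows left out of the total, the share of Alb was 6.45% to 8.08% in the HFD group and 5.85% to 6.93% in the HTG group, so that the groups overlapped (difference -0.80 percentage points, exact permutation test, p = 0.3). The 10 genes together took 8.54% to 10.1% in the HFD group and 7.70% to 8.06% in the HTG group. The difference of the joint share was -1.31 percentage points (exact two-sided permutation test, p = 0.1, the smallest possible). With the mitochondrial rows, whose share was higher in every HTG library, likewise left out, the joint share was 9.13% to 10.7% in the HFD libraries and 8.75% to 9.51% in the HTG libraries, and the difference was -0.70 percentage points with overlapping groups (exact permutation test, p = 0.3).

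**Figure D3:**
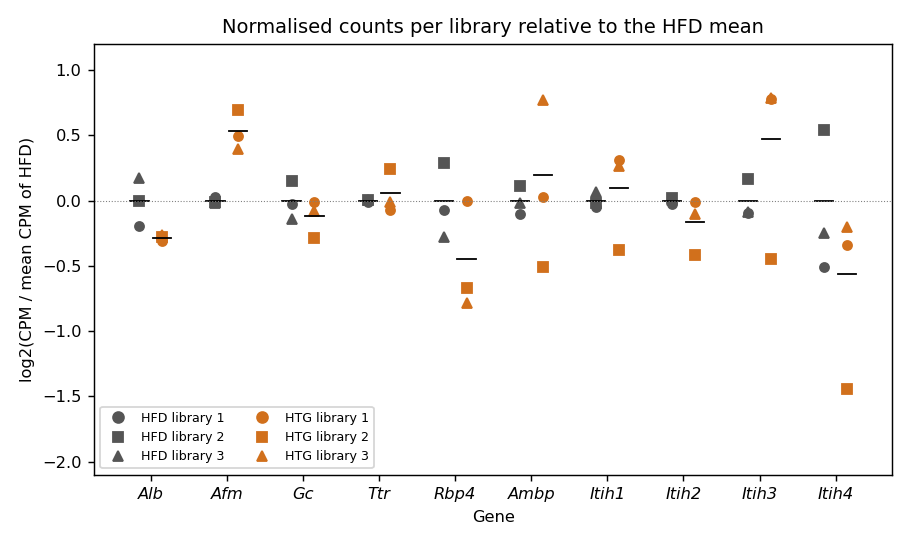
Log2 of each library's normalised count over the mean of the HFD group (vertical axis) for each gene. Grey points are HFD libraries, orange points HTG libraries, marker shapes give the replicate number and black lines the group means. The groups are separate for Alb and Afm only, and HTG library 2 (orange squares) is lowest for 6 of the 10 genes.

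The partners of retinol transport, Ttr and Rbp4, did not pass the test. Ttr (ENSMUSG00000061808, chromosome 18, 20798337 to 20807378) had 5063, 5106 and 5101 CPM in the HFD libraries and 4833, 6018 and 5045 CPM in the HTG libraries. Its coefficient of variation in the HFD group was 0.461% by CPM and 5.37% by FPKM, and HTG library 2 stood above the other 5 libraries. Its log2 fold change was 0.06 (standard error 0.23, 95% interval -0.46 to 0.58, adjusted p = 0.902 in edgeR's quasi-likelihood test), and it was -0.04 without HTG library 2.

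Rbp4 (ENSMUSG00000024990, chromosome 19, 38105077 to 38113729, minus strand) had 3239.6, 4168 and 2806 CPM in the HFD libraries and 3391, 2143 and 1977 CPM in the HTG libraries. HTG libraries 2 and 3 lay below all HFD libraries, whereas HTG library 1 lay within their range. The log2 fold change was -0.44 (standard error 0.29, 95% interval -1.12 to 0.23, unadjusted p = 0.169, adjusted p = 0.389 in edgeR's quasi-likelihood test). Without HTG library 1 it was -0.77 with an unadjusted p of 0.0189 and an adjusted p of 0.117, and without HFD library 2 it was -0.28 with an unadjusted p of 0.424 (same test). Counts of Ttr over those of Rbp4, on the log2 scale, were 0.64, 0.29 and 0.86 in the HFD group, compared with 0.51, 1.49 and 1.35 in the HTG group (difference 0.52, exact permutation test, p = 0.3).

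Of 24 genes listed for retinoid handling, 19 were tested. At an unadjusted p under 0.05, 2 of them were higher and 5 were lower (none, 0, by the adjusted p), beside 24.7% of all genes. The median log2 fold change was -0.45. The higher genes were Rara, a retinoic acid receptor (log2 fold change 0.86, unadjusted p = 0.00245, adjusted p = 0.0625), and Stra6l, which encodes a receptor for Rbp4 (0.81, unadjusted p = 0.00611, adjusted p = 0.0823). Stra6l had 94.3, 91.2 and 129 CPM in the HFD libraries and 198, 147 and 206 CPM in the HTG libraries, without overlap. Among the lower genes, the retinol dehydrogenase Rdh16 had a log2 fold change of -1.08 (adjusted p = 0.0663), the partner receptor Rxra -0.73 (adjusted p = 0.0785) and the retinaldehyde dehydrogenase Aldh1a1 -1.11 (adjusted p = 0.129, all from edgeR's quasi-likelihood test). Lrat, which esterifies retinol in stellate cells, had 10.6 ± 4.39 CPM in the HFD group and 7.72 ± 1.42 CPM in the HTG group (SD, n = 3 per group). The summed level of 10 stellate cell markers was 174 to 257 CPM in the HFD libraries and 161 to 212 CPM in the HTG libraries, and its part in these values was not tested.

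For the ligands carried by Gc and Ttr, 2 of 5 vitamin D genes and 7 of 9 thyroid hormone genes were tested. The vitamin D 25-hydroxylase gene Cyp2r1 had a log2 fold change of -0.57 (unadjusted p = 0.048, adjusted p = 0.198). Of the thyroid hormone genes, 1 was in the higher and 2 in the lower direction at an unadjusted p under 0.05. That threshold was passed by 24.7% of all genes tested (12.3% higher and 12.4% lower). The transporter gene Slc16a10 had a log2 fold change of -0.72 (adjusted p = 0.122), and the receptor gene Thra had 1.42 (adjusted p = 0.136, edgeR's quasi-likelihood test) with overlapping groups. The thyroxine-binding globulin gene Serpina7 had 144 ± 83.2 CPM in the HFD group and 95.2 ± 34.2 CPM in the HTG group (SD, n = 3 per group), with overlapping groups.

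Ambp (ENSMUSG00000028356, chromosome 4, 63061512 to 63073036, minus strand) had 3870.4, 4474 and 4099 CPM in the HFD libraries and 4232, 2917 and 7095 CPM in the HTG libraries. The highest and the lowest library of the 6 were thus both HTG libraries, 3 and 2. The log2 fold change was 0.19 (standard error 0.34, 95% interval -0.58 to 0.97, adjusted p = 0.758 in edgeR's quasi-likelihood test), and -0.21 without HTG library 3. Its coefficient of variation was 7.35% in the HFD group and 45.0% in the HTG group.

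The heavy chain genes Itih1, Itih3 and Itih4 lie next to each other on chromosome 14, where 6218 bases separate Itih4 from Itih3 and 5419 bases separate Itih3 from Itih1. Itih4 is on the plus strand and the other two are on the minus strand. Itih2 is on chromosome 2 (10099404 to 10135886, ENSMUSG00000037254). Neighbours on chromosome 14 went different ways between the groups: Itih3 was higher, Itih4 lower and Itih1 little different in the mean, each without passing the test.

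Itih3 (ENSMUSG00000006522, 30630529 to 30645717) had 1899, 2285 and 1915 CPM in the HFD libraries and 3479, 1491 and 3504 CPM in the HTG libraries. HTG libraries 1 and 3 were nearly alike and above all HFD libraries, and HTG library 2 was below all of them. The log2 fold change was 0.47 (standard error 0.34, 95% interval -0.31 to 1.26, unadjusted p = 0.203, adjusted p = 0.428), and without HTG library 2 it was 0.78 with an unadjusted p of 0.00759 and an adjusted p of 0.204 (edgeR's quasi-likelihood test). Itih4 (ENSMUSG00000021922, 30608433 to 30624310) had 2264, 4662 and 2711 CPM in the HFD libraries and 2538, 1183 and 2793 CPM in the HTG libraries. It varied most of the 10 genes, 3.94-fold between HFD library 2 and HTG library 2, and the other 4 libraries were between 2264 and 2793 CPM. Its log2 fold change was -0.57 (standard error 0.40, 95% interval -1.48 to 0.35, adjusted p = 0.417 in edgeR's quasi-likelihood test), and -0.20 without HFD library 2 or -0.27 without HTG library 2.

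Itih1 (ENSMUSG00000006529, 30651137 to 30665246) had 579.6, 593 and 626 CPM in the HFD libraries and 743, 462 and 721 CPM in the HTG libraries. As for Itih3, HTG libraries 1 and 3 were above and HTG library 2 below all HFD libraries. Its log2 fold change between the groups was 0.10 (standard error 0.24, 95% interval -0.45 to 0.64, adjusted p = 0.832 in the same test), and -0.07 without HTG library 1. Itih2 had 841, 869 and 859 CPM in the HFD libraries and 852, 641 and 796 CPM in the HTG libraries, with HTG library 2 lowest. Its log2 fold change was -0.17 (standard error 0.21, 95% interval -0.64 to 0.30, adjusted p = 0.654 in edgeR's quasi-likelihood test).

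Heavy chain counts were also read against the bikunin precursor in the same library. On the log2 scale, the ratio of Itih3 to Ambp was -1.03, -0.97 and -1.10 in the HFD group, compared with -0.28, -0.97 and -1.02 in the HTG group, so that only HTG library 1 departed from the others. The ratio of Itih2 to Ambp was -2.20, -2.36 and -2.26 in the HFD group, compared with -2.31, -2.19 and -3.16 in the HTG group, where HTG library 3, the library with the most Ambp, stood apart. Itih1 to Ambp differed by -0.03 between the groups (exact permutation test, p = 1) and Itih4 to Ambp by -0.69 (exact permutation test, p = 0.2). The ratio of Itih4 to its neighbour Itih1 was 1.97, 2.98 and 2.11 in the HFD group, compared with 1.77, 1.36 and 1.95 in the HTG group. The groups of that ratio did not overlap, although HFD library 1 and HTG library 3 nearly met (difference -0.66, exact two-sided permutation test, p = 0.1, the smallest possible, and 0.45 after adjustment over 9 pairs).

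HTG library 2 was lowest of the 6 libraries for 6 of the 10 members (Gc, Ambp, Itih1, Itih2, Itih3 and Itih4) and highest for Afm and Ttr. A list of 19 positive acute phase genes, whose products rise in plasma during inflammation, had its lowest value in HTG library 2 for 15 genes and its highest in HTG library 3 for 13 genes. Its summed level was 57799.7, 70699.8 and 48958 CPM in HFD libraries 1, 2 and 3 and 77601, 33462 and 121458 CPM in HTG libraries 1, 2 and 3. Ambp and the acute phase list thus had the same lowest and highest library, as did Itih3 by CPM, although its HTG libraries 1 and 3 were nearly equal and library 1 was the higher by FPKM (892 against 838). Saa2, a serum amyloid A gene, had 1590.2, 2092 and 1521 CPM in the HFD libraries and 2566, 106 and 14059.9 CPM in the HTG libraries. Of the 19 genes, 2 had an unadjusted p under 0.05, both in the higher direction, where 12.3% of all genes tested did, and these were Saa4 (log2 fold change 1.15, adjusted p = 0.115) and Hamp, the iron hormone hepcidin (2.18, adjusted p = 0.191, edgeR's quasi-likelihood test). The summed level of leukocyte markers was 59.6 to 75.6 CPM in the HFD libraries and 44.5 to 90.3 CPM in the HTG libraries. The part of the acute phase genes in the spread of the members was not tested. How many of all genes tested were lowest or highest in HTG libraries 2 and 3 is not given here.

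**Figure D4:**
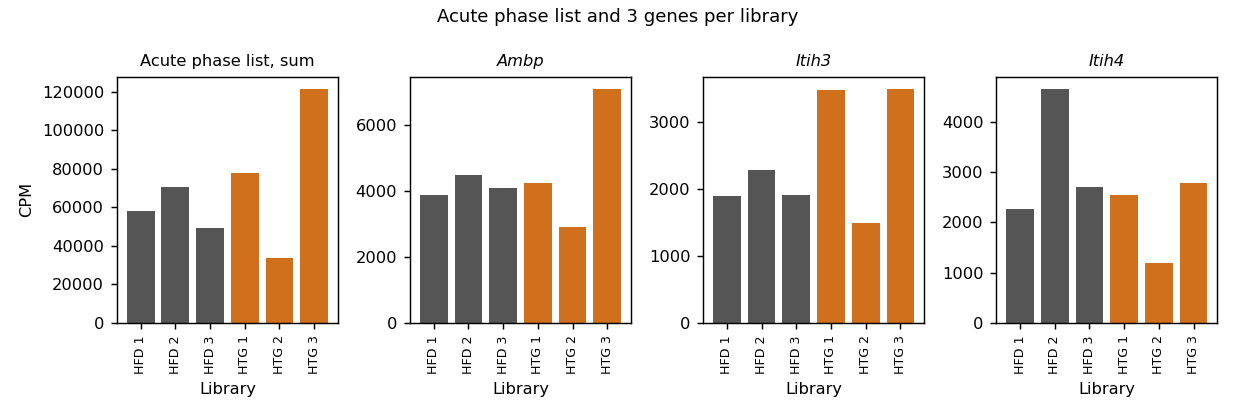
CPM per library (vertical axes, each panel with its own scale from 0) of the summed acute phase list, Ambp, Itih3 and Itih4. Grey bars are HFD libraries and orange bars HTG libraries. The list and the 3 genes are lowest in HTG library 2, and the list, Ambp and Itih3 are highest in HTG library 3.

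By Pearson's r of log2 CPM over the 6 libraries, and as a description only, since the libraries share 2 groups and the choice was made among 1183 genes with a mean of at least 100 CPM, genes most like the mean of the members were C8b (r = 0.996), Cfb (0.984), C4b (0.975) and Qsox1 (0.969). C8b, Cfb and C4b encode components of complement. Between pairs of members, r over the 6 libraries ran from -0.927 (Ttr and Itih2) to 0.926 (Itih1 and Itih3). Their mean thus does not stand for each member. The genes most like Alb were Nedd4 (r = 0.981), Cs (0.976), Slc26a1 (0.971), Dlst (0.969) and Fads2 (0.967).

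Genes that act around these proteins were read from lists, against the 24.7% of all genes at an unadjusted p under 0.05. No gene of these lists had an adjusted p under 0.05 in edgeR's quasi-likelihood test. Of 10 tested genes of hyaluronan metabolism, 1 was higher and 2 lower. The family member Itih5 had 9.40, 10.6 and 20.5 CPM in the HFD libraries and 3.68, 4.58 and 4.85 CPM in the HTG libraries, with no overlap (log2 fold change -1.63, standard error 0.32, unadjusted p = 0.000857, adjusted p = 0.0582). The hyaluronan receptor gene Cd44 had a log2 fold change of -0.37 (unadjusted p = 0.0496) and the hyaluronidase gene Cemip2 one of 0.70 (unadjusted p = 0.0168).

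The list for the chondroitin link and the cleavage of precursors had 16 tested genes, 0 higher and 2 lower at the unadjusted threshold. Of all genes tested, 12.3% were higher and 12.4% lower at that threshold. Both lower genes encode proprotein convertases, the proteases that cut precursor proteins at basic sites. Pcsk6 had 84.7, 113 and 111 CPM in the HFD libraries and 58.5, 51.4 and 50.8 CPM in the HTG libraries (log2 fold change -0.94, adjusted p = 0.0582). Furin had 143, 162 and 202 CPM in the HFD libraries and 100.5, 112 and 94.3 CPM in the HTG libraries (log2 fold change -0.72, adjusted p = 0.0816, edgeR's quasi-likelihood test). The groups did not overlap in either gene. A further convertase gene of the list, Pcsk7, had a log2 fold change of 0.13 with overlapping groups (unadjusted p = 0.491, same test). Xylt2, which begins the chondroitin chain, had a log2 fold change of -0.02 (unadjusted p = 0.912).

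The list of liver-enriched transcription factors held 19 tested genes, 4 of them higher and 1 lower by that measure. Foxa2 (log2 fold change 0.91, adjusted p = 0.0948) and Foxa1 (0.72, adjusted p = 0.0963), which bind liver enhancers, were higher without overlap, as was Zbtb20 (0.57, adjusted p = 0.108), a repressor of Afp. Onecut1, a factor of liver development, had 1.69 (adjusted p = 0.107) with overlapping groups. Zhx2, another repressor of Afp, was lower without overlap (-1.09, adjusted p = 0.0582). Hnf4a had a log2 fold change of -0.71 (unadjusted p = 0.0931, edgeR's quasi-likelihood test) and was highest, at 1082 CPM, in HFD library 2.

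Secreted proteins are folded in the endoplasmic reticulum and exported in COPII vesicles. Of 19 genes for these steps, 3 had higher and 7 had lower levels by the unadjusted p, with a median log2 fold change of -0.17. The higher genes were Sec61b of the translocation channel (0.90, adjusted p = 0.0559), the disulphide isomerase gene Pdia3 (0.77, adjusted p = 0.0979) and the chaperone gene Calr (0.79, adjusted p = 0.141). Among the lower genes were the COPII genes Sec23a (-0.77, adjusted p = 0.0785), Sec24d (-0.70, adjusted p = 0.0839) and Sar1b (-0.96, adjusted p = 0.106, edgeR's quasi-likelihood test). The groups did not overlap in any of these 6 genes, which were named for their small p. Among all genes tested, 32.1% were separate in this way. Folding genes did not all go the same way. Canx (-0.79, adjusted p = 0.145) and Ero1a (-0.59, adjusted p = 0.113) were also lower without overlap. Hspa5, Hsp90b1, Pdia4, Pdia6 and P4hb had unadjusted p-values from 0.151 to 0.842 (same test).

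Of 12 tested genes for other plasma carriers and fetuins, 1 was higher and 1 lower at the unadjusted threshold. Selenop, a selenium carrier, had 4988, 6368 and 4819 CPM in the HFD libraries and 4388, 2350.1 and 3182 CPM in the HTG libraries (log2 fold change -0.71, adjusted p = 0.186). Orm3, an acid glycoprotein gene that can share reads with Orm1 and Orm2, had a log2 fold change of 1.62 (adjusted p = 0.169) with overlapping groups. The genes for albumin recycling and uptake included 0 at an unadjusted p under 0.05 among 5 tested. Fcgrt, the receptor chain that rescues albumin from breakdown, had a log2 fold change of -0.62 (unadjusted p = 0.0803, edgeR's quasi-likelihood test), and its partner B2m had 0.29 (unadjusted p = 0.227).

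**Figure D5:**
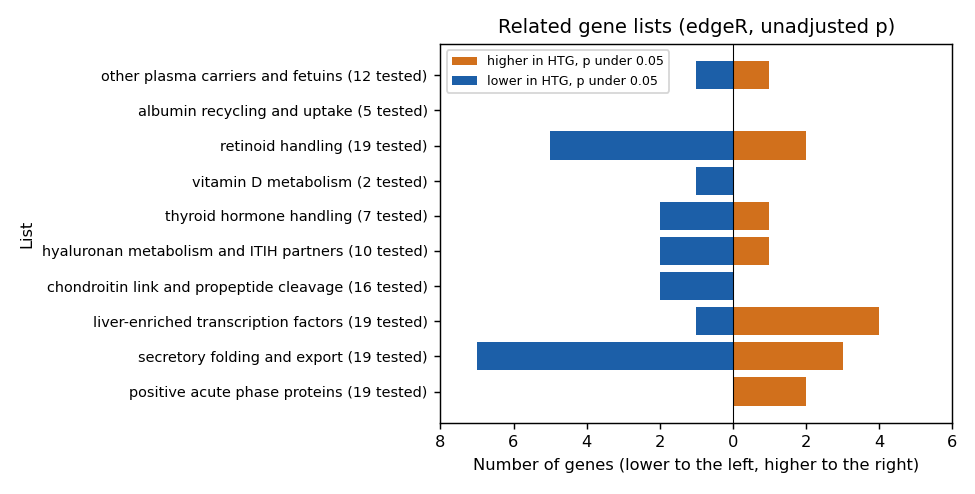
Number of genes at an unadjusted p under 0.05 in edgeR's quasi-likelihood test for 10 lists of genes related to the members, higher in the HTG group to the right and lower to the left of 0. The number tested stands beside each name. Secretory folding and export has 3 higher and 7 lower of 19, and retinoid handling 2 higher and 5 lower of 19.

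The 12 hepatocyte markers outside the members had a median log2 fold change of -0.55. The groups did not overlap in 7 of the 12, all lower in the HTG group, where 15.5% of all genes tested were separate and lower. Of the 12 markers, 4 had an unadjusted p under 0.05 in edgeR's quasi-likelihood test, all in the lower direction, where 12.4% of all genes tested did. Among them were Cps1 (-1.62), Tat (-1.32) and Apob (-1.05). In the higher direction were Fgb (0.62, unadjusted p = 0.128) and Fah (0.09, unadjusted p = 0.669, same test). The 10 carrier and ITIH genes had a median of -0.03, and the difference between these medians was not tested. Circadian genes, which follow the time of day, ranged widely within each group, with Dbp at 144, 29.4 and 28.3 CPM in the HFD libraries and 5.83, 274 and 116 CPM in the HTG libraries, and their part in the values of the members was not tested.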

How the data were processed

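For each gene row the authors deposited estimated counts (whole numbers, unscaled) and FPKM in every library. The submitters' processing notes name HISAT2, StringTie and SAMtools, without versions, and the rat build mRatBN7.2, which the mouse identifiers of the rows do not match, so coordinates are given as deposited without a build. Strand use in counting is not given in the sources used here. Columns were assigned to samples by name. 

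Counts were tested with edgeR 4.0.16 in R 4.3.3 (filterByExpr, TMM, glmQLFit and glmQLFTest, group as the only term), with Benjamini-Hochberg adjustment over all 18455 genes tested. Standard errors were taken from the quasi-likelihood F, and intervals are at the 95% level. CPM use TMM-scaled totals. Shares and ratios were compared by exact two-sided permutation tests. Scripts were tested on simulated data.

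Members and lists were chosen with earlier results of these data known. Named are all members, and in each list up to 3 genes a direction with the smallest unadjusted p and a mean of at least 1 CPM, and for likeness the 5 highest r. Some genes that this rule names are not reported here. Lrat, Xylt2, Saa2, Zbtb20, Tat, Dbp, Canx, Ero1a, Hspa5, Hsp90b1, Pdia4, Pdia6 and P4hb were named after their values were seen. The alternatives were DESeq2 1.42.0, limma 3.58.1 on log2(FPKM + 0.1) or log2(FPKM + 1), other scalings and filters, counts divided by 4, the replicate block and each library left out.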

Additional observations from a re-analysis of the deposited data

How the results depend on the processing

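In each of the 19 alternative fits (other scalings, filters, units, pseudocounts, DESeq2, limma, the replicate block and each library left out), 0 of the 10 members had an adjusted p under 0.05. The number at an unadjusted p under 0.05 was 1 to 2 when libraries were left out, 2 without HTG library 1 (Afm and Rbp4) and without HTG library 2 (Afm and Itih3), and 1 otherwise. Directions reversed in 3 cases, with log2 fold changes of -0.065 for Itih1 without HTG library 1, -0.044 for Ttr without HTG library 2 and -0.21 for Ambp without HTG library 3. The ranges without 1 library were -0.065 to 0.29 for Itih1, -0.044 to 0.097 for Ttr and -0.21 to 0.45 for Ambp. Without 1 library the number of ratios with separate groups was 2 to 4 of 9, and was 4 without any one of the HTG libraries. Separate groups stay separate when a library is left out, so this number could not fall below the 2 found with all libraries. The joint share of the members differed by -0.70 percentage points without mitochondrial rows in the total and by -2.83 as a share of summed FPKM, and the share of Alb by -0.80 and -2.13 under the same alternatives. Without 1 library the joint share differed by -1.64 to -0.855 and that of Alb by -1.51 to -0.694. With the replicate number as a block the median log2 fold change of the members was -0.03 and Afm had an unadjusted p of 0.0425 and an adjusted p of 0.222 (edgeR's quasi-likelihood test). Deviations from the group means did not pair the numbers (r = -0.17, -0.13 and 0.23 for numbers 1, 2 and 3). The number of members called was 0 throughout, while the count over all genes at an adjusted p under 0.05, 2 in the fit reported, was 2173 in DESeq2, 684 with at least 10 counts in every library, 822 with counts divided by 4, 162 without a filter, 14 without mitochondrial rows, 878 and 884 in limma on log2(FPKM + 0.1) and log2(FPKM + 1), 0 in limma without a filter, 0 with library totals alone, 0 with the block and 0 to 653 without 1 library (653 without HTG library 1). The cause of these differences was not tested. With 3 libraries per group, intervals such as -0.91 to 0.34 for Alb limit what could be detected.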
